A study of Mus musculus with 52 samples.

Results

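Immunoglobulin heavy and light chain genes were followed in 52 tumours grown in the mammary fat pad of Balb/C mice from 4T1 cells, a murine breast cancer line. The members were chosen by symbol and by depth. They are the genes whose symbol starts with Ighv, Igkv, Iglv or Iglc, the 8 heavy chain constant genes, Igkc and Jchain, provided that their counts summed to 200 or more over all libraries. Of 47729 gene identifiers, 362 had such a symbol and 200 met the count sum. These were 95 of 185 heavy variable genes, 89 of 160 kappa variable genes, 3 of 3 lambda variable genes, 8 of 8 heavy constant genes, 3 of 4 lambda constant genes, the kappa constant gene and the joining chain. Just outside the threshold lay Ighv11-1, Igkv8-34 and Igkv1-132 with sums of 188, 190 and 192 counts, and just inside it lay Ighv5-1, Ighv10-3 and Ighv1-34 with 204, 204 and 205. GENCODE annotates 11 of the 200 as variable pseudogenes. Of the 200, 8 were above 0 in every library, 37 were at 0 in 26 or more libraries, and 178 passed the filter on low counts used before testing.

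Each mouse received 100000 tumour cells in the 4th fat pad and was then given 200 µg of its antibody into the peritoneum 3 times, on day 7, day 10 and day 13, and tumours were taken at a volume of up to about 150 mm3. Anti-PD-L1 and anti-CTLA4 block proteins that restrain T cells, and the isotype antibody was the control. Young mice, labelled 8 to 10 weeks old, gave 7 libraries with isotype, 10 with anti-PD-L1 and 12 with anti-CTLA4. Aged mice, over 12 months old, gave 7 with isotype, 8 with anti-PD-L1 and 8 with anti-CTLA4. All groups carried the same cell line, the only tumour model used, in the same strain. The labels number libraries as biological replicates without naming animals, so p-values measure the spread between libraries. Total counts ran from 9549847 to 53778370 per library, with a median of 20665734.

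The libraries were sequenced in 3 batches that the groups did not share evenly. Batch 2 held all 7 young isotype and 9 young anti-PD-L1 libraries but no aged library, and batch 1 held all 8 aged anti-PD-L1 libraries. The 2 ages had no batch in common with isotype or with anti-PD-L1, so that batch and age cannot be told apart there except through the other groups. Genes of B cells, of the lymph node and of T cells rose and fell with the immunoglobulin genes over the libraries. The mean log2 CPM of 16 B cell genes ran from -0.76 to 6.94 over libraries, and that of 8 genes of lymph node stroma and high endothelium from -0.69 to 6.60. The part of lymph node tissue in the levels given below was not tested. In whole tumours fewer B cells and less immunoglobulin RNA per cell cannot be told apart.

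An antibody is built of paired heavy and light chains. Each chain joins 1 variable segment, which shapes the antigen binding site, to a constant region, and the variable segment is picked for each B cell by DNA recombination. A resting B cell makes IgM and IgD, and after stimulation it may switch to an IgG subclass, IgA or IgE while keeping its variable segments. Plasma cells make these RNAs in very large amounts, so that a few expanded clones can supply most of the immunoglobulin RNA of a sample and lend it their variable segments.

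Variable genes resemble each other, and the sequences show how closely. The 60 last bases of the transcripts of 9 variable genes that led libraries or resembled one that did are printed here from GENCODE vM21 (GRCm38), 5′ to 3′ on the coding strand, with the codon of the conserved cysteine that precedes the junction in capitals.
Ighv9-3: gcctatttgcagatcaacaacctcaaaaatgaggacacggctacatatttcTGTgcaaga
Ighv2-9: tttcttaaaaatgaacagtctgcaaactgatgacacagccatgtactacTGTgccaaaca
Ighv2-2: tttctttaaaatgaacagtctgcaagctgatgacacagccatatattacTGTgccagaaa
Ighv5-12: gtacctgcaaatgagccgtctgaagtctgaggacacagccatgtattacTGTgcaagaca
Igkv3-4: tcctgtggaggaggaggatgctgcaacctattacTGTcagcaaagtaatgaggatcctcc
Igkv3-3: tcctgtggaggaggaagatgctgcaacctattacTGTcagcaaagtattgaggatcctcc
Igkv4-79: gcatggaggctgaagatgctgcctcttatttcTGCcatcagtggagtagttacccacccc
Igkv12-46: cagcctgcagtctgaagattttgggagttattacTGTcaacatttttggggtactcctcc
Igkv5-43: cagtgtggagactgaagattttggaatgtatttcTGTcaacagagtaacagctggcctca
The codon was taken as TGT or TGC directly after TAT, TAC, TTT or TTC, read on the coding strand alone. It stood in the last 60 bases of 91 of 95 heavy, 88 of 89 kappa and 2 of 3 lambda variable members, against 60 of 90 heavy and 55 of 71 kappa variable genes below the count threshold. The heavy genes lie on chromosome 12, the kappa genes on chromosome 6 and the lambda genes on chromosome 16.

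The likeness limits how far reads can be assigned to 1 gene. Cut into words of 31 bases, the transcripts of heavy variable members shared a median of 43.2% of their words with other members or related genes, and 35 of 95 shared more than 50%. For kappa variable members the median was 48.4%, and 41 of 89 shared more than 50%. Constant genes shared no more than 25.1%. The reference genome is of the C57BL/6 strain, whereas the mice were Balb/C, a strain whose heavy chain locus carries Ighg2a in the place of Ighg2c. The annotation holds no Ighg2a, so values of Ighg2c are those of the row of that name. Whether reads of Ighg2a were counted there, in other IgG rows or not at all is not known here. Levels of the IgG genes and the shares taken from them carry this limit. Because variable genes share words, values of single ones are uncertain as to gene.

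The amount of immunoglobulin RNA differed widely between tumours of the same group. Summed over the 200 members it ran from 23.8 TPM (a level per transcript length, scaled to a fixed library total) in aged anti-PD-L1 replicate 2 to 96695 TPM in young anti-PD-L1 replicate 3. On the log2 CPM scale Ighg1, the heavy chain of IgG1, had an SD over the 52 libraries of 4.12, the 6th highest of 17899 genes tested, whereas the median gene had an SD of 0.52. The SD was 3.56 for Ighe, 3.51 for Ighg2c, 3.37 for Ighg2b, 3.13 for Ighd, 2.99 for Ighg3, 2.95 for Jchain and 2.90 for Igkc. Ighm, with an SD of 2.02, and Igha, the heavy chain of IgA, with 1.69, varied less.

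Ighm, the heavy chain of IgM, lies at chr12:113418558-113422730 on the minus strand. Its level in young mice ran from 33.8 to 492 TPM with a median of 131 under isotype, from 38.1 to 761 with a median of 119.8 under anti-PD-L1, and from 60.3 to 1191 with a median of 277 under anti-CTLA4. In aged mice it ran from 13.5 to 1001 TPM with a median of 338 under isotype, from 6.39 to 2591 with a median of 85.1 under anti-PD-L1, and from 19.0 to 3641 with a median of 162 under anti-CTLA4. The 6 groups overlapped, and the lowest and the highest libraries of the study were both aged. Ighd, the heavy chain of IgD on resting B cells, was low in most tumours, with a median of 0.760 TPM over all libraries and a range from 0.0622 TPM in aged anti-PD-L1 replicate 4 to 162 TPM in young anti-CTLA4 replicate 7. Its group medians lay between 0.424 TPM in young anti-PD-L1 and 8.55 TPM in aged anti-CTLA4, and all groups overlapped.

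Ighg1 spanned more than 4 orders of magnitude. In young mice it ran from 1.07 to 1711 TPM with a median of 25.9 under isotype, from 10.3 to 10865 with a median of 99.1 under anti-PD-L1, and from 9.43 to 7180.4 with a median of 233 under anti-CTLA4. In aged mice it ran from 0.335 to 1841 TPM with a median of 8.54 under isotype, from 0.295 to 9231 with a median of 2.46 under anti-PD-L1, and from 0.859 to 3139.7 with a median of 12.7 under anti-CTLA4. Every aged group median lay below every young one, yet the highest library of each aged group lay above every young isotype library and all groups overlapped. The rows of the other IgG subclasses were lower, with the limit from the strain given above. Over all libraries Ighg2b had a median of 2.85 TPM and a highest value of 486, Ighg2c a median of 1.45 and a highest value of 601, and Ighg3 a median of 3.01 and a highest value of 519. The first 2 peaked in young anti-PD-L1 replicate 3 and Ighg3 in aged anti-PD-L1 replicate 8.

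Igha and Ighe encode the heavy chains of IgA, the class of mucosal secretions, and of IgE, the class bound by mast cells and basophils. Igha had a median of 8.31 TPM over all libraries, with group medians from 4.91 TPM in aged anti-PD-L1 to 13.2 TPM in aged anti-CTLA4. Ighe had a median of 0.547 TPM, was at 0 in 6 libraries, and reached 155 TPM in young anti-CTLA4 replicate 7. Both ranges overlapped between all groups.

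Igkc, the constant region of kappa light chains, was the most abundant member by median. It ran from 112 to 5249 TPM with a median of 456 in young isotype, from 205 to 38711 with a median of 639 in young anti-PD-L1, and from 183 to 19604 with a median of 1237 in young anti-CTLA4. In aged mice it ran from 34.0 to 8621 TPM with a median of 1269.6 under isotype, from 6.24 to 27279.8 with a median of 210.0 under anti-PD-L1, and from 39.4 to 14674 with a median of 482 under anti-CTLA4. The groups overlapped, and the 3 aged groups held the libraries below 100 TPM. Jchain, which links the units of secreted IgM and IgA, had a median of 52.3 TPM and a range from 0.303 to 3115 TPM. The lambda constant genes Iglc1, Iglc2 and Iglc3 had medians of 25.4, 13.8 and 11.1 TPM, and the variable genes Iglv1, Iglv2 and Iglv3 of 44.6, 7.84 and 3.12 TPM.

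**Figure D1:**
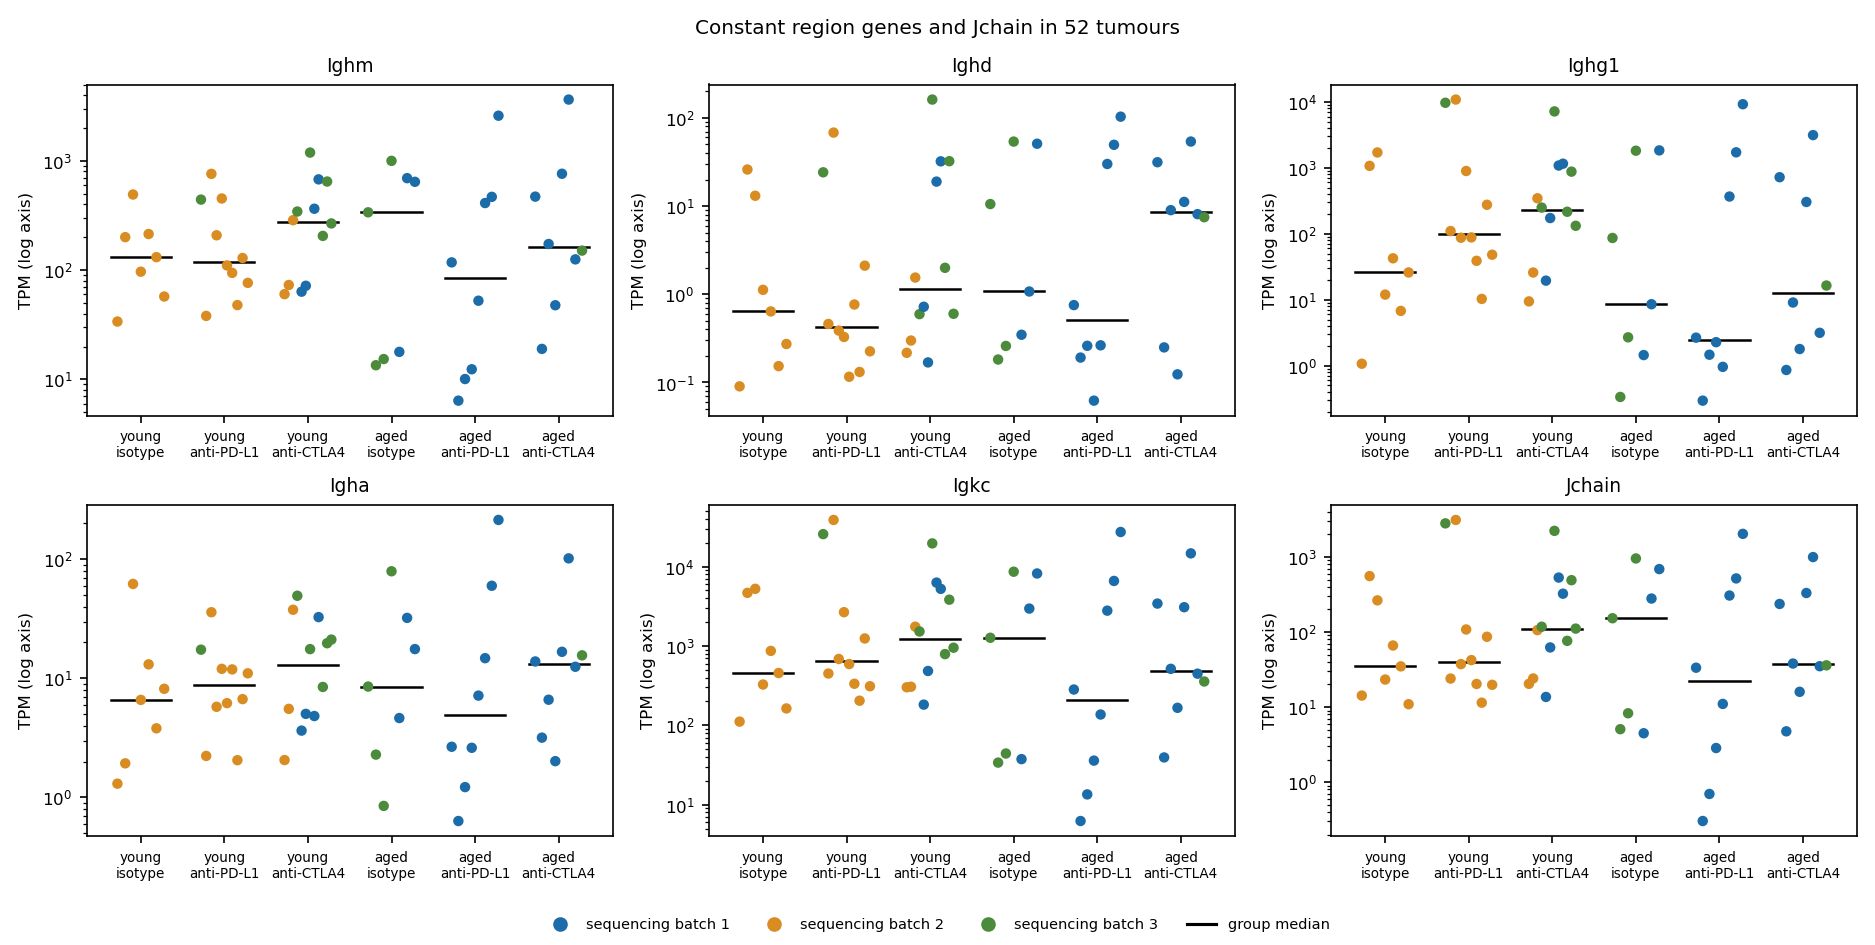
Level of 6 members in each of the 52 tumours, in TPM on log axes, by group. Points are libraries coloured by sequencing batch and bars are group medians. All groups overlap for each gene, and Ighg1 runs from 0.295 to 10865 TPM.

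No constant region gene passed the test in any of the 9 comparisons made in the fit over all genes with terms for group and sequencing batch. These set each antibody against isotype at either age, set aged against young mice given the same antibody, and took the difference of each antibody effect between the ages. The test was edgeR's quasi-likelihood test with Benjamini-Hochberg adjustment over 17899 genes at an adjusted p under 0.05. A total of 11 calls were made on variable genes. Log2 fold changes (log2FC) are given with their SE.

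Under anti-PD-L1 in young mice, mean levels of the IgG genes were above those under isotype without passing the test. Ighg2b averaged 120.1 ± 245 CPM (SD, n = 10) against 8.23 ± 13.2 CPM (SD, n = 7), and 9 of 10 libraries lay above the isotype median, with a log2FC of 3.24 ± 1.64 (SE) and an adjusted p of 0.213. Ighg2c had a log2FC of 3.53 ± 1.72 (SE, adjusted p = 0.197), with 6 of 10 libraries above the isotype median. Ighg1 had a log2FC of 1.92 ± 1.75 (SE, adjusted p = 0.499), and Ighm one of -0.04 ± 0.91 (SE, adjusted p = 0.985). The spread between libraries exceeded these differences. Of the 178 members tested 1 was called, Igkv9-123, beside 1.59% of all genes tested. This kappa variable gene, at chr6:67954228-67954714 on the minus strand, averaged 5.90 ± 18.4 CPM (SD, n = 10) against 0.0203 ± 0.0358 CPM (SD, n = 7), with 3 of 10 libraries above the isotype median of 0 (log2FC 7.76 ± 2.02, SE, adjusted p = 0.0353). Without young anti-PD-L1 replicate 3 its log2FC was 1.48 (adjusted p = 0.594), and the call was also lost without young isotype replicate 1, 2, 5 or 6 (adjusted p from 0.0596 to 0.147), with no filter on low counts (adjusted p = 0.0507) and with the replicate block (adjusted p = 0.264). The replicate block is the same fit with terms for the replicate number. These numbers did not pair libraries (median correlation -0.0201 for same-numbered pairs and -0.0108 for others). No conclusion is drawn from calls lost with it, here or below. The number of members called was 3 without young isotype replicate 7 or without young anti-PD-L1 replicate 1 or 3. The median log2FC of the members was 1.16, against 0.02 over all genes, and 17 members against 4339 of all genes had an unadjusted p under 0.05.

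Under anti-CTLA4 in young mice, edgeR called 0 of 178 members, beside 0.0726% of all genes. Of the members 6, or 3.37%, had an unadjusted p under 0.05, against 6.97% of all genes, and DESeq2 called 0. Mean levels and fitted changes differed in sign for Ighg1 and Ighg2b. The fit holds a term for the sequencing batch, and all young isotype libraries were in batch 2. Ighg1 averaged 919.6 ± 1705 CPM (SD, n = 12) against 452 ± 741 CPM (SD, n = 7), whereas its log2FC was -1.82 ± 2.28 (SE, adjusted p = 0.944). Ighg2b lay above the isotype median in 12 of 12 libraries and had a log2FC of -0.64 ± 2.02 (SE, adjusted p = 0.983).

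In aged mice neither antibody gave a call on any gene of the study, a background of 0% in both comparisons. Of the 178 members 10 had an unadjusted p under 0.05 for anti-PD-L1, against 5379 of all genes, and 10 for anti-CTLA4, against 5321. DESeq2, which gave an adjusted p to fewer members, called 2 and 1. Without aged isotype replicate 5 edgeR called 4 and 5. The share of all genes called in these alternative fits is not given here, so the counts are not set against a background. The 0% is that of the edgeR fit over all 52 libraries. There 5.62% of members had an unadjusted p under 0.05 for either antibody, against 30.1% and 29.7% of all genes. Ighm averaged 537 ± 954 CPM (SD, n = 8) under anti-PD-L1, 707 ± 1162 CPM (SD, n = 8) under anti-CTLA4 and 559 ± 543 CPM (SD, n = 7) under isotype, differences below the spread between libraries. Ighg1 averaged 1111 ± 2412, 366 ± 717 and 519 ± 865 CPM (SD) in the same groups.

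Between aged and young mice the calls pointed to lower levels of single variable genes in aged mice. Under isotype 1 of 178 members was called, beside 8.41% of all genes. Ighv15-2 averaged 0.112 ± 0.166 CPM (SD, n = 7) in aged and 1.73 ± 3.20 CPM (SD, n = 7) in young mice (log2FC -8.31 ± 2.26, SE, adjusted p = 0.0168). The young median was 0, with 5 of 7 libraries at 0, and 3 of 7 aged libraries lay above it, so that the fitted direction is that of the means and not of the medians. The call on Ighv15-2 was lost with no batch term (log2FC -3.85, adjusted p = 0.0804), with DESeq2 (adjusted p = 0.0884), with the replicate block (adjusted p = 0.0656) and with the Igkc covariate described further on (adjusted p = 0.224). Without aged isotype replicate 4 the number called was 3. Under anti-PD-L1 edgeR called 0 of 178 members, beside 5.04% of all genes. An unadjusted p under 0.05 was reached by 17 members, or 9.55%, against 21.1% of all genes. DESeq2 called 3, and without aged anti-PD-L1 replicate 8 edgeR called 6. The share of all genes called in these alternatives is not given here.

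Under anti-CTLA4 9 of 178 members fell in aged against young mice and 0 rose, beside 30.6% of all genes called in either direction. The share of members called thus lay below that of all genes. The members with the smallest p were Igkv2-112, Igkv1-99, Igkv15-103, Igkv1-133 and Ighv5-2. Igkv2-112 averaged 0.157 ± 0.227 CPM (SD, n = 8) in aged and 2.72 ± 6.05 CPM (SD, n = 12) in young mice, and 7 of 8 aged libraries lay below the young median (log2FC -4.70 ± 1.29, SE, adjusted p = 0.00469). Igkv1-99 was lower in 7 of 8 aged libraries (log2FC -4.96 ± 1.49, SE, adjusted p = 0.00963) and Ighv5-2 in 7 of 8 (log2FC -3.86 ± 1.39, SE, adjusted p = 0.0299). Igkv15-103 and Igkv1-133 were lower in 5 and 4 of 8 (log2FC -4.98 ± 1.68 and -3.998 ± 1.37, SE, adjusted p = 0.0206 and 0.0226). With no batch term the calls on Igkv15-103, Igkv1-133 and Ighv5-2 were lost (adjusted p = 0.128, 0.0506 and 0.0586), and within batch 1 those on Igkv15-103 and Ighv5-2 (adjusted p = 0.0733 and 0.0720). With no filter on low counts the call on Ighv5-2 was lost (adjusted p = 0.0536). Without young anti-CTLA4 replicate 6 the call on Igkv2-112 was lost (log2FC -2.95, adjusted p = 0.0877). The replicate block left 0 members called, with an adjusted p of 0.0751 for Igkv2-112 and 0.0650 for Igkv1-99. Young anti-CTLA4 replicate 8 carried much of the count: without it 1 member was called, whereas 14 were called without aged anti-CTLA4 replicate 6, 5 without aged anti-CTLA4 replicate 7 and 4 without aged anti-CTLA4 replicate 8. Among the constant genes Iglc2 came nearest, with a log2FC of -2.84 ± 1.28 (SE, adjusted p = 0.0841).

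The antibody effects were not shown to differ between the ages. For either antibody edgeR called 0 of 178 members and 0% of all genes, and DESeq2 called 0 members in both. For anti-PD-L1 11 members had an unadjusted p under 0.05 in edgeR, 6.18% against 3.66% of all genes. For anti-CTLA4 3 members had such a p, 1.69% against 7.02% of all genes.

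Genes of antibody secreting cells and B cells were among those that varied most like the constant genes. Over the 52 libraries, among 14478 genes outside the members with a mean of at least 1 CPM, Mzb1, a chaperone of plasma cells, had the highest Spearman rho with Jchain (0.985), Igkc (0.979), Ighm (0.943) and Ighg3 (0.865). Ighd varied most like Cxcr5, a homing receptor of follicular B cells (rho 0.938), Ms4a1, which encodes CD20 (0.936), and the B cell receptor genes Cd79b (0.927) and Cd79a (0.924). Derl3, a gene of protein disposal in secretory cells, was highest for Ighg2b (0.892), and for Ighg1 it stood at 0.921, next to Serpina1b at 0.925. Ighe varied most like Spib, of the B cell list (0.841). Genes outside the lists of B cell and plasma cell genes stood near the top too. Besides Serpina1b, they included Lax1 for Jchain (0.951), Igkc (0.936) and Ighm (0.908), and Dennd2d, the highest for Ighg2c (0.866). Others among them were Gimap1 for Ighg1 (0.907) and Ighe (0.838), and Ccl19, of the lymph node list, for Ighe (0.825). Igha followed other genes less closely, with 0.789 for Gpr18 as its highest. These values describe libraries that share depth and composition, and carry no test.

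Class genes rose together. On the log2 CPM scale, Ighg1 correlated with Ighm (Pearson r = 0.847, Spearman rho = 0.836), with Ighe (r = 0.873, rho = 0.855) and with Igha (r = 0.722, rho = 0.718), and Ighm with Ighd (r = 0.795, rho = 0.823), each over 52 libraries with a permutation p of 1e-05, the smallest that 100000 resamples can give, and an adjusted p of 1e-05 over 5 relations. Within sequencing batches 1, 2 and 3 the r of Ighg1 with Ighm was 0.866, 0.758 and 0.934, that with Ighe 0.944, 0.745 and 0.955, that with Igha 0.799, 0.595 and 0.709, and that of Ighm with Ighd 0.867, 0.718 and 0.804. Without the 2 libraries farthest from the median these r were 0.828, 0.863, 0.681 and 0.794.

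The isotype mix was taken as each gene's share of the summed TPM of the 8 heavy chain constant genes. Ighm and Ighd together, the unswitched classes, made up from 4.18% in young anti-PD-L1 replicate 1 to 95.4% in aged anti-PD-L1 replicate 1. In young mice the lowest, median and highest shares were 16.4, 76.9 and 92.7% under isotype, 4.18, 43.5 and 73.9% under anti-PD-L1, and 14.5, 43.2 and 72.0% under anti-CTLA4. In aged mice they were 25.3, 75.9 and 87.0% under isotype, 19.9, 70.7 and 95.4% under anti-PD-L1, and 38.1, 81.2 and 90.8% under anti-CTLA4. The groups overlapped, and the lower medians were those of the antibody-treated young groups. IgG made up the complement in most libraries. Among the IgG rows as annotated, Ighg1 took the main share. Its extremes were 11.8% of IgG in aged isotype replicate 6 and 99.3% in young anti-PD-L1 replicate 6.

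**Figure D2:**
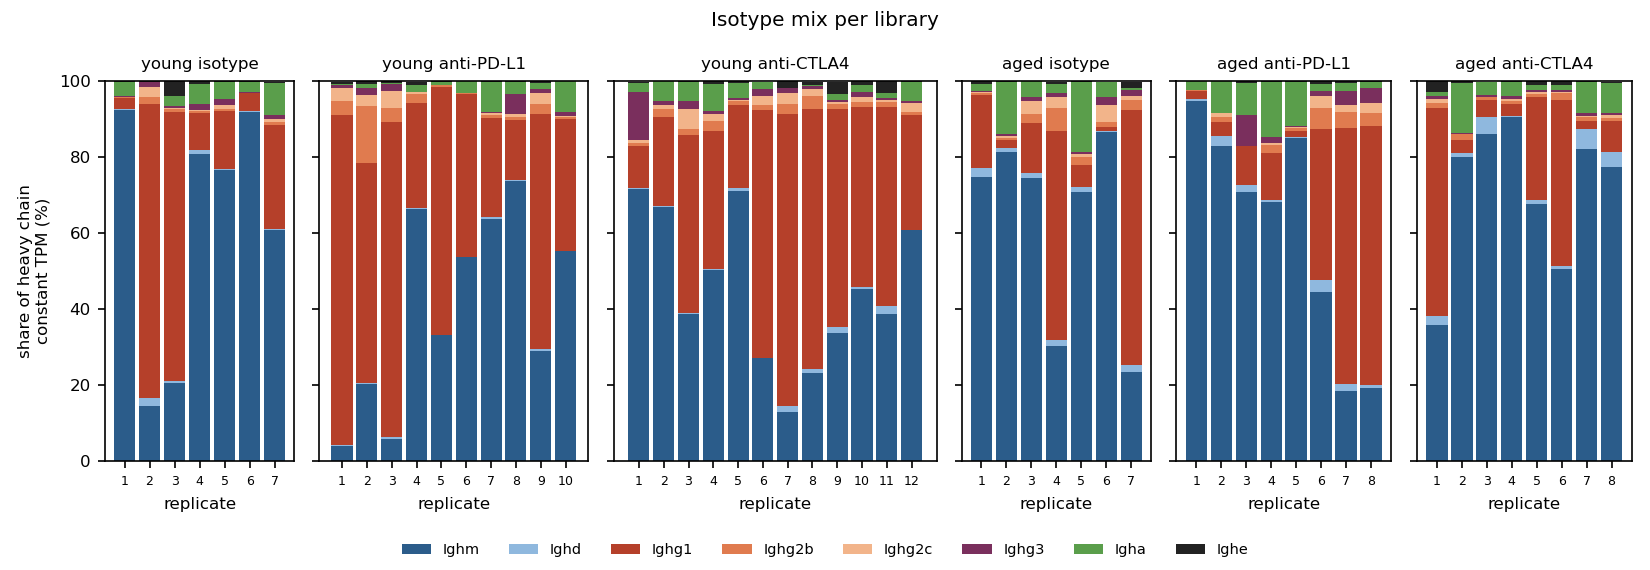
Share of each heavy chain constant gene in their summed TPM, as stacked bars that reach 100%, for each library by group and replicate number. Ighm and Ighg1 take most of nearly every bar, and Ighm with Ighd runs from 4.18% to 95.4%.

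None of 28 share comparisons, 4 shares in 7 pairs of groups, passed an exact two-sided permutation test after Benjamini-Hochberg adjustment over the 28, and 3 had an unadjusted p under 0.05. The smallest was the share of Ighm and Ighd in aged against young mice under anti-CTLA4. It averaged 73.7 ± 19.5% (SD, n = 8) in aged and 45.8 ± 19.2% (SD, n = 12) in young mice, and 7 of 8 aged libraries lay above the young median (exact permutation p = 0.00664, adjusted p = 0.186). Within sequencing batch 1 the means were 72.6 ± 20.8% (SD, n = 7) and 39.7 ± 22.1% (SD, n = 4), with an exact permutation p of 0.0515. Aged anti-CTLA4 replicate 1, at 38.1%, was the aged library below the young median, and without it the difference of 33.0 percentage points had an adjusted p of 0.0461 by the same exact test. That adjustment kept the p-values of the other comparisons from all libraries. Leaving out the aged library that lay against the difference had to widen it, so no conclusion is drawn from this value.

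The lambda share of light chain constant TPM averaged 5.12 ± 2.28% (SD, n = 10) under anti-PD-L1 and 8.04 ± 2.58% (SD, n = 7) under isotype in young mice, with 9 of 10 libraries below the isotype median (exact permutation p = 0.0269, adjusted p = 0.291). Within batch 2 it averaged 5.43 ± 2.18% (SD, n = 9) against the same isotype libraries (exact permutation p = 0.0471). The Ighg2c share of IgG averaged 14.1 ± 17.2% (SD, n = 7) in aged and 2.93 ± 1.77% (SD, n = 7) in young mice under isotype (exact permutation p = 0.0455, adjusted p = 0.291), and these groups share no batch. That share also carries the limit on Ighg2c from the strain. The IgA share, with group medians from 1.67% in young anti-PD-L1 to 5.28% in aged anti-PD-L1, had no unadjusted p under 0.05 in its 7 comparisons. Shares that miss the threshold are not shown to be alike.

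The share of the unswitched classes fell as the amount of immunoglobulin RNA rose. Over 52 libraries the log2 CPM of Igkc and the share of Ighm and Ighd had a Pearson r of -0.730 and a Spearman rho of -0.708 (permutation p = 1e-05 and adjusted p = 1e-05, the smallest that 100000 resamples can give). The r was -0.687 over the 22 libraries of batch 1, -0.710 over the 19 of batch 2 and -0.914 over the 11 of batch 3, and -0.706 without the 2 libraries farthest from the median. B cell genes rose along the same axis, with a Spearman rho of their log2 CPM with Igkc between 0.709 and 0.890 over 16 genes, and their part in the relation was not tested.

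**Figure D3:**
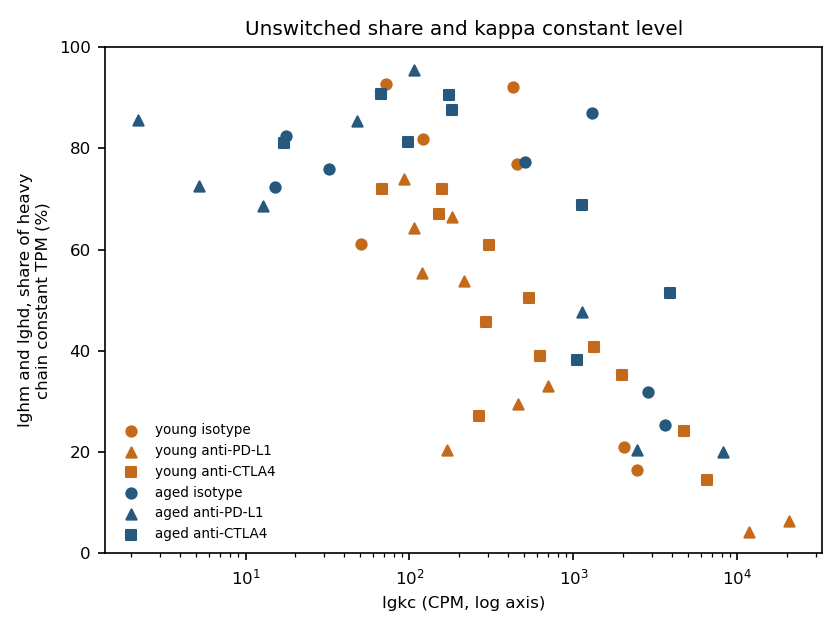
Share of Ighm and Ighd in heavy chain constant TPM (vertical axis, %) against the level of Igkc (horizontal log axis, CPM), 1 point for each of the 52 libraries, with colour for age and shape for antibody. Shares fall toward the right, to 6.33% in the library with the most Igkc, young anti-PD-L1 replicate 3.

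Variable genes were described in libraries with at least 200 counts of the chain, 36 libraries for heavy and 48 for kappa genes. Most tumours used many genes, but the lead passed from gene to gene. At least 1 library was led by each of 17 heavy and 27 kappa genes, and 10 heavy and 12 kappa genes took 20% or more of their chain somewhere. The 6 leading heavy genes were Ighv9-3, Ighv2-2, Ighv2-9, Ighv5-12, Ighv2-3 and Ighv3-2, with 26.5% of heavy variable counts between them in the mean library. Ighv9-3 averaged 7.11%, led 7 libraries and reached 24.5% in aged anti-CTLA4 replicate 1. Ighv5-12 reached 35.3% in aged isotype replicate 6 and 30.3% in young anti-CTLA4 replicate 6, and Ighv2-9 reached 35.2% in young anti-PD-L1 replicate 10. The 6 leading kappa genes were Igkv3-4, Igkv1-110, Igkv5-43, Igkv1-135, Igkv12-41 and Igkv6-15, with 22.3% of kappa variable counts between them.

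Large shares of a kappa gene stood in 1 tumour for some genes and in several for others. Igkv4-57-1 took 64.7% of kappa variable counts in young isotype replicate 6 and no more than 7.75% elsewhere. Igkv4-79 took 58.0% and 46.9% in aged anti-CTLA4 replicates 4 and 3, and 17.1% in young anti-CTLA4 replicate 5 as the next highest. Igkv12-46 took 51.6% and 28.9% in aged anti-CTLA4 replicates 5 and 6, with 4.99% as the next highest. Igkv5-43 took 41.6% in aged anti-CTLA4 replicate 2 and 35.3% in aged isotype replicate 6, where Igkv15-103 took a further 25.3%. Igkv1-122 took 37.0% in young anti-PD-L1 replicate 10, Igkv6-15 28.5% in aged isotype replicate 1 and Igkv12-41 25.6% in young anti-PD-L1 replicate 6. These libraries differed in depth: the share in aged anti-CTLA4 replicate 2 rested on 87 counts of Igkv5-43 and that in aged anti-CTLA4 replicate 6 on 31230 counts of Igkv12-46.

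The spread over genes was given as the effective number, the number of equally used genes that would give the same chance that 2 draws hit 1 gene (the inverse Simpson index). For kappa genes it had a median of 13.7 and ran from 2.35 in young isotype replicate 6 to 33.3 in a young anti-CTLA4 library. Its lowest, median and highest values in young mice were 2.35, 20.03 and 29.2 under isotype, 3.05, 9.04 and 16.2 under anti-PD-L1, and 12.1, 24.9 and 33.3 under anti-CTLA4. In aged mice they were 4.71, 18.7 and 32.3 under isotype in 6 libraries, 4.27, 9.71 and 30.3 under anti-PD-L1 in 5 libraries, and 2.90, 7.54 and 14.5 under anti-CTLA4 in 8 libraries. For kappa genes young anti-CTLA4 libraries were thus spread the most widely and aged anti-CTLA4 libraries the least by median. These 2 groups overlapped between 12.1 and 14.5. For heavy genes the median was 20.1, with a range from 5.47 to 35.6, and the order of the groups differed. Heavy medians in young mice were 28.3 under isotype, 19.8 under anti-PD-L1 and 23.7 under anti-CTLA4. In aged mice they were 26.9, 15.9 and 14.7, and all groups overlapped. Thinned to 200 counts, a library showed a median of 50.4 heavy and 43.1 kappa genes.

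**Figure D4:**
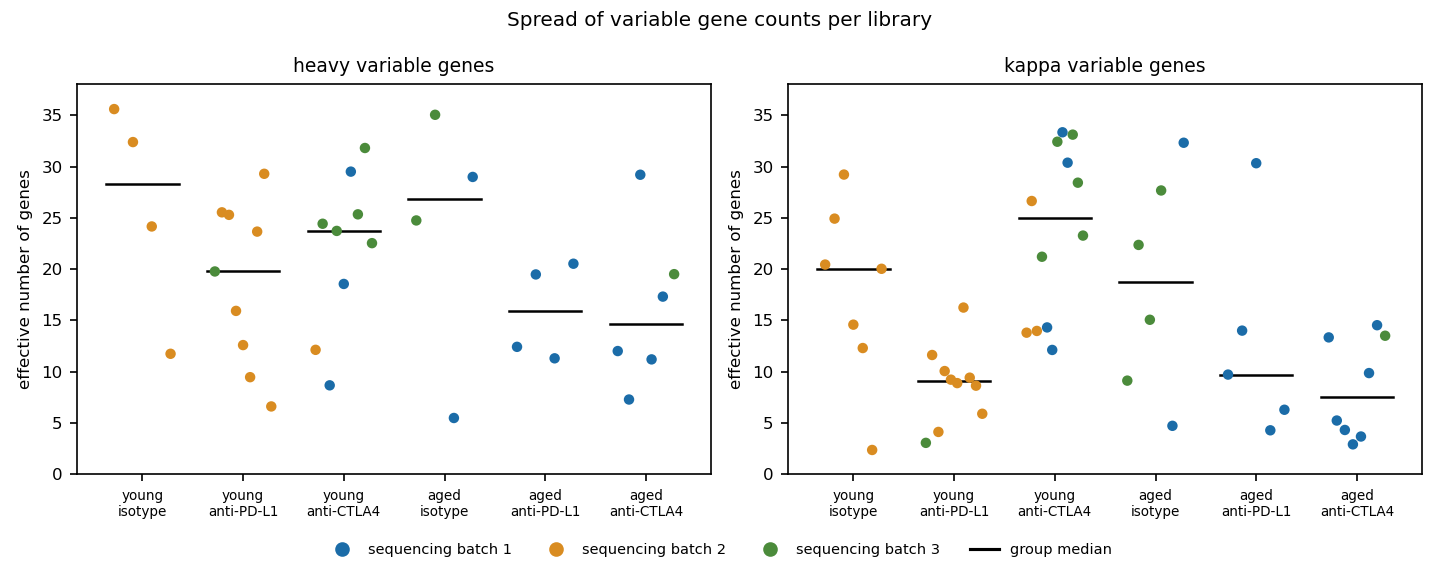
Effective number of heavy (left) and kappa (right) variable genes in each library with at least 200 counts of the chain, by group. Points are libraries coloured by sequencing batch and bars are group medians. For kappa genes the group medians run from 7.54 in aged anti-CTLA4 to 24.9 in young anti-CTLA4.

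Igkv3-4 was the kappa gene with the highest mean share, 6.74%, and led 6 libraries. It lies at chr6:70671788-70672377 on the plus strand. The last 240 of 360 bases of its transcript are printed because this gene held more than 20% of kappa variable counts in 5 libraries, with the cysteine codon in capitals.
Igkv3-4: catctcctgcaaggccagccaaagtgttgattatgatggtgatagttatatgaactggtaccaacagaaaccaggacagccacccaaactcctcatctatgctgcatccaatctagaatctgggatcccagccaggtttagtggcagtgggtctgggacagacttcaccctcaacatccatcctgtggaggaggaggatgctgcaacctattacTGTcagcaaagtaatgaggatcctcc
It shared 55.2% of its words of 31 bases with other genes, 33.0% with Igkv3-3, the closest. In young anti-PD-L1 tumours it took 56.6% in replicate 1, 48.4% in replicate 3, 31.8% in replicate 9, 18.2% in replicate 2, 10.4% in replicate 7 and 7.63% in replicate 8, and from 0.274 to 2.87% in the other 4. In aged anti-PD-L1 tumours it took 47.2% in replicate 7, 36.9% in replicate 8, 6.18% in replicate 6, 1.18% in replicate 1 and 0.627% in replicate 5, and 3 libraries had too few counts. It took no more than 4.29% in any of 20 anti-CTLA4 libraries. In the isotype groups it took no more than 3.08%, except 14.5% in young isotype replicate 7. The 5 libraries above 20% were all treated with anti-PD-L1, came from all 3 sequencing batches, and included the 4 anti-PD-L1 libraries with the most Igkc.

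The pattern of Igkv3-4 was noticed in these data and its shares carry no test. In the fit over all genes its log2FC for anti-PD-L1 against isotype was 6.91 ± 2.09 (SE, adjusted p = 0.0671) in young mice, with 7 of 10 libraries above the isotype median, and 4.86 ± 2.05 (SE, adjusted p = 0.111) in aged mice, with 4 of 8 above. It averaged 639 ± 1420 CPM (SD, n = 10) against 3.83 ± 4.87 CPM (SD, n = 7) in young mice, and 253 ± 550.1 CPM (SD, n = 8) against 6.89 ± 12.1 CPM (SD, n = 7) in aged mice. Neither difference passed the threshold.

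**Figure D5:**
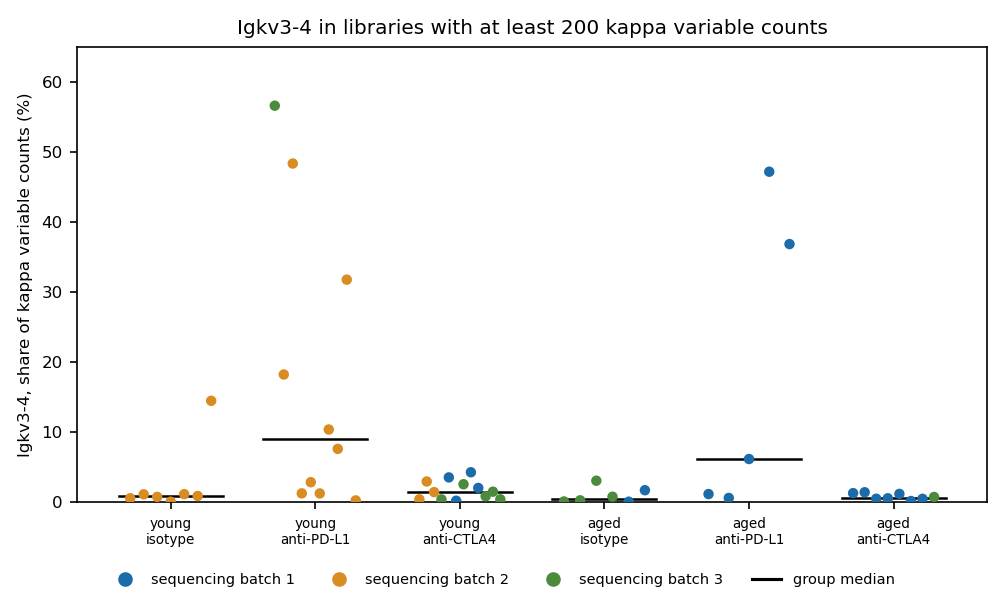
Share of Igkv3-4 in kappa variable counts (%) in each of the 48 libraries with at least 200 such counts, by group. Points are libraries coloured by sequencing batch and bars are group medians. The 5 libraries above 20% are anti-PD-L1 libraries of both ages, and anti-CTLA4 libraries stay at or below 4.29%.

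Because the amount of immunoglobulin RNA dominated the spread, the comparisons were also fitted with the log2 CPM of Igkc as a covariate, an alternative chosen after seeing the data whose covariate is itself a member. A log2FC in that fit is the group difference left after each gene's own fitted slope on the Igkc level, and not a ratio to Igkc. Under anti-PD-L1 in young mice 1 member rose and 4 fell, beside 1.89% of all genes. Ighg2b rose by a log2FC of 2.28 ± 0.62 (SE, adjusted p = 0.0388), and Igkv8-21 had the smallest p among those that fell, -3.60 ± 0.73 (SE, adjusted p = 0.00559), followed by Igkv4-50, Igkv13-85 and Ighv8-11. The number called was 8, 12 and 17 without young isotype replicate 3, 4 and 7, and 14 without young anti-PD-L1 replicate 1. Igkv3-4 had a log2FC of 2.96 ± 0.95 (SE, adjusted p = 0.0741) in young and 4.09 ± 1.06 (SE, adjusted p = 0.0698) in aged mice.

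With the covariate, anti-CTLA4 in young mice gave 0 calls on members, beside 0.0615% of all genes. There 19 members, or 10.7%, had an unadjusted p under 0.05 in edgeR, against 9.22% of all genes. Both antibodies in aged mice gave 0 calls beside 0%. For anti-PD-L1 22 members had such a p, 12.4% against 32.9% of all genes, and for anti-CTLA4 23, 12.9% against 32.8%. In aged against young mice under isotype 3 rose, Igkv4-91 (log2FC 5.40 ± 1.04, SE, adjusted p = 0.00219), Ighv11-2 and Ighv12-3, and Ighv8-11 fell, beside 5.74% of all genes. Under anti-PD-L1 Ighv1-33 and Igkv4-91 rose, beside 1.16%. Under anti-CTLA4 16 members rose and 9 fell, beside 28.7%. Ighd was among those that rose, by a log2FC of 1.85 ± 0.61 (SE, adjusted p = 0.0194), and Igkv12-46 and Igkv12-41 were others, while Iglc2 fell by 1.68 ± 0.37 (SE, adjusted p = 0.000699) and Iglv3 by 2.45 ± 0.60 (SE, adjusted p = 0.00192) on the log2 scale. The difference of the anti-PD-L1 effect between ages gave 1 call, Igkv8-18, beside 0.0335% of all genes. That of the anti-CTLA4 effect gave 0 beside 0%. For the latter 23 members had an unadjusted p under 0.05 in edgeR, 12.9% against 8.56% of all genes.

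Genes that act on antibodies were compared in lists chosen with earlier results known. In aged against young mice under anti-CTLA4 30.6% of all genes were called, which is the background for each count that follows. Aged mice had lower levels of 9 of 12 genes of B cell survival and switch cytokines, with Ifng at a log2FC of -2.63 ± 0.44 (SE, adjusted p = 2.46e-05), and of 5 of 12 immunoglobulin receptors, with Fcer1a, a chain of the IgE receptor, at -2.02 ± 0.35 (SE, adjusted p = 4.26e-05). Of 10 T cell genes 8 fell, with Cd3d at -3.05 ± 0.68 (SE, adjusted p = 0.000648), and the list had a median log2FC of -1.81. Of 16 B cell genes 1 fell, Cd37 at -1.66 ± 0.66 (SE, adjusted p = 0.0499), and the list had a median of -1.14. All members of both lists had a log2FC below 0, and the difference between the lists was not tested. Of 12 germinal centre genes 2 fell, among them Fas (log2FC -1.57), and of 14 plasma cell genes 1, Creld2 (-0.71). Of 8 lymph node genes 1 fell, Ltb (-2.06), and of 6 tested genes of V(D)J recombination 1 rose, Lig4 (0.65). Under isotype, beside 8.41% of all genes, 4 of 12 cytokine genes fell in aged mice, with Il4, which directs switching to IgG1 and IgE, at -2.02 ± 0.51 (SE, adjusted p = 0.0101), and 1 plasma cell gene, Prdm1, at -1.34 ± 0.38 (SE, adjusted p = 0.0201). Under anti-PD-L1, beside 5.04% of all genes, 3 of 12 cytokine genes fell in aged mice, with Il10 at -3.42 ± 0.75 (SE, adjusted p = 0.0090), and 1 of 12 germinal centre genes, Fas, at -1.37 ± 0.39 (SE, adjusted p = 0.0330). Against isotype in young mice, beside 1.59% of all genes, 1 of 6 V(D)J genes fell under anti-PD-L1, Dntt, at -1.28 ± 0.33 (SE, adjusted p = 0.0325), and none of 16 B cell or 14 plasma cell genes passed.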

How the data were processed

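RNA was measured in 52 mammary tumours in 6 groups. The submitters' processing notes name Salmon, without a version, DESeq2 1.16.1 and the build mm10. The sources used here do not say how transcripts were summed to genes. The authors deposited estimated counts per gene, all whole numbers, and TPM values of the same libraries. The members, lists and rule for named genes were chosen with earlier results of these data known. The rule took all constant, lambda variable and joining chain members, the 6 leading heavy and kappa variable genes, variable genes with 20% or more of their chain in a library, and up to 5 called members per comparison.

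Gene-wise tests of the counts used edgeR 4.0.16 (R 4.3.3, filterByExpr, 17899 genes, TMM factors from 0.618 to 1.21, 1 fit over 52 libraries with group and sequencing batch, quasi-likelihood F test, adjusted p under 0.05). Log2 CPM used a prior count of 2. Shares used deposited TPM in libraries with at least 100 constant region counts (SciPy 1.17.1), which left out aged anti-PD-L1 replicate 2 for lambda. The scripts were tested on simulated data. Gene names and sequences came from GENCODE vM21. Over 209 pairs of libraries within groups, chi-square divided by its degrees of freedom was at least 19.2, so none was a copy. Alternatives were no filter, no batch term, DESeq2 1.42.0, size factors by relative log expression, the replicate block, the groups compared alone, single batches, each library left out, shares of counts, at least 1000 constant region counts, thinning to 1000 counts and, added after seeing the data, the Igkc covariate. Total counts per library, from 9549847 to 53778370, set the precision of rare genes.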

Additional observations from a re-analysis of the deposited data

Results flagged for a closer look

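Sets of values were examined for outliers, each holding 1 measure in 1 group of libraries. In 3 of 96 sets, or 3.12%, 1 library stood apart from the others by more than Dixon's 95% critical value, against about 1 in 20 expected by chance. The sets reuse the same libraries and hold measures that vary together, so they are not separate tests. Only groups of up to 10 libraries were examined. Young anti-CTLA4, with 12, therefore entered only through the spread over heavy genes, in 9 libraries. The Ighg2c share of IgG was 50.7% in aged isotype replicate 6, with 17.2% as the next highest of its group. The same library took 35.3% of heavy variable counts from Ighv5-12. The lambda share of light chain constant TPM was 18.8% in aged anti-CTLA4 replicate 2, with 9.69% as the next highest. The log2 CPM of Ighe was 6.88 in young isotype replicate 3, with 1.53 as the next highest. The anti-PD-L1 effect on Igkv8-18 differed between the ages in the fit with Igkc as a covariate, by a log2FC of 6.40 ± 1.29 (SE, adjusted p = 0.0443, edgeR). This gene averaged 0.786 CPM under anti-PD-L1 and 0.117 CPM under isotype in aged mice. Without the covariate the difference was 4.58 ± 1.73 (SE, adjusted p = 1.00), and with the replicate block the covariate fit called no member.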

How the results depend on the processing

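Over the counts of members called, the differences in share and the spread over variable genes, 134 alternatives were taken as the same, left-out libraries aside. For a count this meant equal or close to the main count. For a difference in share it meant the same sign and side of the threshold, and for the spread a median within 1 SD between libraries. Of the others 10 changed sign, 16 were stronger or larger, 11 weaker or smaller, and 2 moved. The cause of these changes was not tested. The alternatives changed the number of members called as follows. Apart from the Igkc covariate, the shares of all genes called in these fits are not given here, so the counts are not set against a background. For young mice given anti-PD-L1 it was 1 and became 0 with no filter, within batch 2, with the groups compared alone and with the replicate block, and 5 with the Igkc covariate. For aged against young mice it was 1, 0 and 9 with isotype, anti-PD-L1 and anti-CTLA4. It became 2, 5 and 5 with no batch term and 4, 2 and 25 with the Igkc covariate. DESeq2 called 3 under isotype, 3 under anti-PD-L1 and 11 under anti-CTLA4, and for anti-PD-L1 and anti-CTLA4 against isotype in aged mice it called 2 and 1. Ighv15-2, the member called under isotype, was in none of these 3 larger sets (adjusted p = 0.0804 with no batch term, 0.224 with the covariate, 0.0884 with DESeq2), so their counts rest on other genes. Within batch 1 the 9 became 5. The replicate block gave 0 for the ages under isotype and anti-CTLA4. The numbers did not pair libraries: same-numbered pairs had a median correlation of -0.0201, other pairs -0.0108. The Igkc covariate gave 1 call on the difference of the anti-PD-L1 effect between ages, and 0 with the replicate block. In that covariate fit anti-PD-L1 in young mice gave 1 call within batch 2 and 3 with the replicate block, anti-CTLA4 in aged mice gave 1 within batch 1, and with no batch term anti-CTLA4 in young mice gave 6, anti-PD-L1 in aged mice 4, and aged against young mice 24 with isotype and 19 with anti-PD-L1.

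Thinning to 1000 counts gave 79.2 heavy and 68.2 kappa genes. Differences in share that changed sign, none of which passed a test, were these, in percentage points. Using shares of counts, Ighg2c under anti-CTLA4 in aged against young mice became -0.0391. With at least 1000 constant region counts, IgM with IgD in aged against young mice under isotype became -2.87 and IgA -1.80, IgA in aged mice became 1.62 under anti-PD-L1 and 1.66 under anti-CTLA4, and lambda 3.40 and 0.239. Within batch 1, IgM with IgD under anti-PD-L1 in aged mice became 0.437. Within batch 2, under anti-CTLA4 in young mice, IgA became 0.233 and lambda -0.373.

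Leaving out each library in turn gave from 0 to 3 calls for anti-PD-L1 in young mice, from 0 to 4 and from 0 to 5 for anti-PD-L1 and anti-CTLA4 in aged mice, and, between ages, from 1 to 3 with isotype, from 0 to 6 with anti-PD-L1 and from 1 to 14 with anti-CTLA4. With the covariate anti-PD-L1 in young mice gave from 4 to 17. Between ages, the IgM with IgD difference ran from 25.1 to 33.0 with anti-CTLA4 and from -6.35 to 7.98 with isotype, and that of Ighg2c from -1.01 to 0.570 with anti-CTLA4. For anti-PD-L1 in aged mice IgM with IgD ran from -9.18 to 3.37 and IgA from -1.32 to 1.83, for anti-CTLA4 in aged mice IgA ran from -2.58 to 0.596, and for anti-PD-L1 in young mice Ighg2c ran from -0.931 to 0.00956.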
